A study of Mus musculus with 4 samples.

Results

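The genes described here encode 8 peptidases that act on peptides at the cell surface or, for Cpe, in secretory granules: Dpp4, Fap, Anpep, Enpep, Mme, Ace, Cpe and Cpm. They were taken by name from the annotation of 1-colour Agilent arrays, on which all 8 had at least 1 probe (11 of 39429 probes). Of these 8 genes, 6 had signal above the limit used for testing and stood among 17418 tested genes. The 8 genes were chosen on their measured differences between the groups, which were already known. Their values are therefore a description, and the adjusted p-values beside them, taken from the fit over all genes, do not test the choice.

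The arrays carried RNA of spleen cells from mice heterozygous for a green fluorescent protein reporter at the Ackr4 locus (Ackr4GFP/wt), so the controls carried the reporter allele as well. Spleens were digested with dispase, collagenase D and DNase I, red cells were lysed and cells bearing CD45 were removed with beads. Living cells without CD45 and with the endothelial protein CD31 were sorted into ACKR4-positive cells, with green fluorescence, and ACKR4-negative cells, without it. The sorting was done on 2 separate occasions, each on pooled spleens of 2 to 3 mice, for 2 arrays per group, and the labels give no age or sex. Reporter fluorescence, not ACKR4 protein, defined the groups.

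Peptidases anchored in the plasma membrane trim peptide hormones, kinins and chemokines outside the cell and so set how long and in which form such signals last. On endothelium they face the blood directly. Angiotensin-converting enzyme makes angiotensin II and destroys bradykinin, aminopeptidases shorten the angiotensins further, and dipeptidyl peptidase 4 clips incretins and chemokines such as CXCL12. Carboxypeptidases remove C-terminal lysine or arginine, either from kinins outside the cell or from prohormone fragments in secretory granules.

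Expression of these genes differed in both directions. Anpep (aminopeptidase N, CD13) was higher in ACKR4-positive cells, by a log2 fold change of 4.40 ± 0.39 (standard error of the limma fit, n = 2 arrays per group, as throughout). Dpp4 (dipeptidyl peptidase 4, CD26), Cpm (carboxypeptidase M) and Cpe (carboxypeptidase E) were lower in them, by -7.35 ± 0.61, -4.54 ± 0.45 and -3.86 ± 0.29. Enpep and Ace had values of -2.95 ± 0.58 and -1.30 ± 0.36 and were not called, and Fap and Mme were too dim to be tested. A call means an adjusted p under 0.05 in the limma fit, adjusted over all tested genes. Among all tested genes 5.63% were called, 1.91% higher and 3.71% lower in ACKR4-positive cells, against 1 gene higher and 3 lower of these 6. Because the choice of the genes used this same contrast, nothing is read from that difference in share.

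The promoters of Dpp4, Anpep and Cpm are shown because these genes were called and could be matched in the promoter table used here. Each line gives the 250 bases before the start site (RefSeq, GRCm38.p6), 5′ to 3′ on the gene's strand. Capitals mark matches on either strand to 7 short motifs: the GC box GGGCGG, the TATA box TATAAA, the ETS motif CGGAAG, the GATA motif GATAA, the SOX motif ACAAT, the RBPJ motif GTGGGAA and the CCAAT box CCAAT. Dpp4 lies at chr2:62412232-62412481 on the minus strand, Anpep at chr7:79848211-79848460 on the minus strand, and Cpm at chr10:117629250-117629499 on the plus strand.
Dpp4: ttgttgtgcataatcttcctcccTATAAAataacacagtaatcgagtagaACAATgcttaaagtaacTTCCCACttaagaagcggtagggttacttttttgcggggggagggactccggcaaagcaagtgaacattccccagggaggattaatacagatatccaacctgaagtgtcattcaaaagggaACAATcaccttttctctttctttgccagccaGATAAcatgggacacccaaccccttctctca
Anpep: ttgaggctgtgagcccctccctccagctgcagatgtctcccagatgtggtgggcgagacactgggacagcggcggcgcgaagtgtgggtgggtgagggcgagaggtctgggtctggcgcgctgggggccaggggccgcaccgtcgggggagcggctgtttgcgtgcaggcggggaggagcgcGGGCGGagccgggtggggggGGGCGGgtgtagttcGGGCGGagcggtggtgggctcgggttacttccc
Cpm: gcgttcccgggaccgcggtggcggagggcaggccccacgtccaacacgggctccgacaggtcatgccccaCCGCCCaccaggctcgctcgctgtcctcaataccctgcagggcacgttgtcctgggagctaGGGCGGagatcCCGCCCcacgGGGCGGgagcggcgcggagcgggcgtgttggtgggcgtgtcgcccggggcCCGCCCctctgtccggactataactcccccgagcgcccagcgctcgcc

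The upstream sequence of Dpp4 differed from that of both other genes in composition. Its GC content was 43.6%, above that of 20.0% of 32841 promoters of the same length, against 72.8% for Anpep and 74.4% for Cpm, above 94.0% and 95.4% of promoters. Anpep held 3 GC boxes and Cpm held 5, whereas Dpp4 held 0, and 32.7% of all promoters held at least 1. Dpp4 held 1 GATA match, 31 bases before the start, 2 SOX matches, 1 RBPJ match and 1 TATA match, 227 bases before the start. At least 1 match was found in 22.6% of all promoters for GATA, 27.7% for SOX, 5.41% for RBPJ and 12.4% for TATA. None of the motifs searched other than the GC box matched in Anpep or Cpm, and the ETS motif, present in 13.6% of promoters, matched in none of the 3. The Anpep window, from the gene that was higher, and the Cpm window, from a gene that was lower, thus held matches to the same motif. These matches describe the letters of the windows, and binding was not measured.

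Levels below are log2 signals of a probe minus the 75th percentile of its array, so 0 is that percentile. Levels of different genes come from different probes and are not set against each other, except in the summed levels of marker lists. A summed level is the log2 of the added signals of the tested genes of a list, so it follows the brightest probes.

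**Figure D1:**
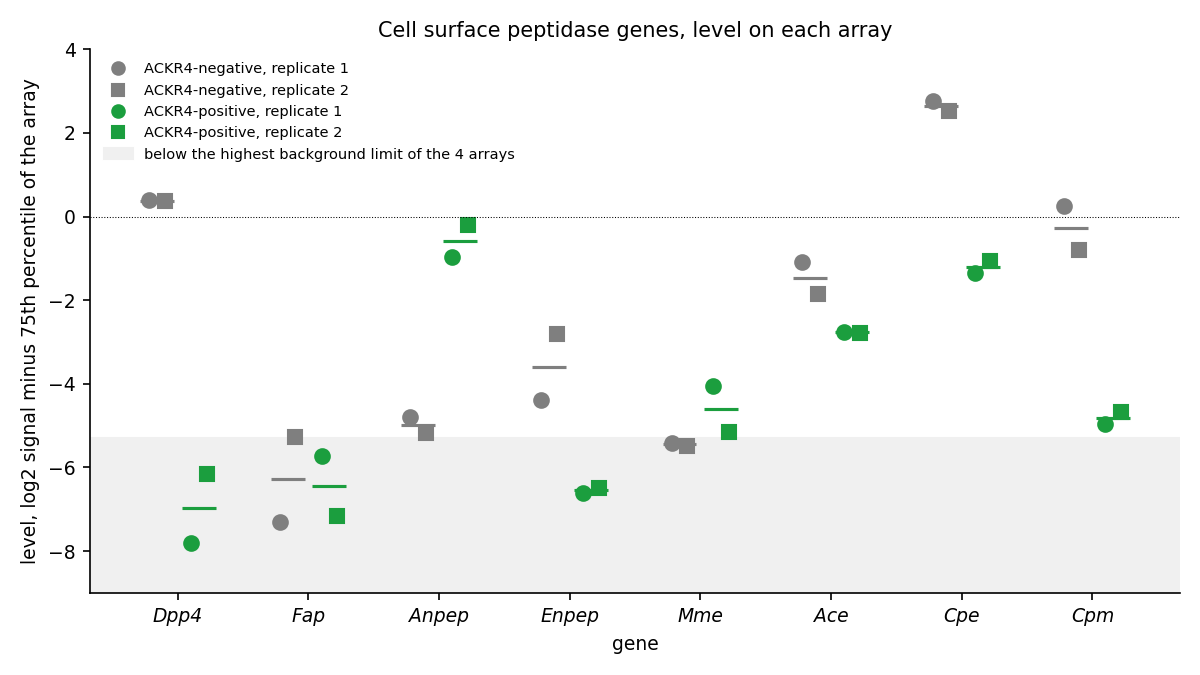
Level of each gene on each of the 4 arrays (log2 signal minus the 75th percentile of the array) for ACKR4-negative (grey) and ACKR4-positive cells (green), replicate 1 as circles and replicate 2 as squares, with group means as lines, and grey shading below -5.31, the highest of the 4 arrays' lowest levels well above background. The groups are separate for Dpp4, Anpep, Enpep, Ace, Cpe and Cpm and for the Mme probe shown, and overlap for Fap. Only arrays of the same gene can be compared.

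Dpp4, the serine peptidase that takes dipeptides off N-termini, had levels of 0.39 and 0.37 on the ACKR4-negative arrays of replicates 1 and 2. On the ACKR4-positive arrays the levels were -7.80 and -6.15, not well above background on either. The ACKR4-negative arrays were therefore almost equal, and the spread of 1.17 (SD) in ACKR4-positive cells was that of a signal near background. The difference was at least 66.3-fold when the dim arrays were set to the lowest level well above background (adjusted p = 0.0118). With normexp background correction the log2 fold change was -3.91, a smaller fold than that bound, which holds for the signal without normexp. The value of -7.35 includes signal that was not well above background. In these sorted populations, fewer cells expressing a gene and less RNA per cell cannot be told apart. The probe lies at chr2:62170062-62170121 (mm9, minus strand), from base 3276 of the transcript.

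Fap, fibroblast activation protein, a serine peptidase related to Dpp4, is separated from it on chromosome 2 by Gcg and Gm13561 in the RefSeq gene list. Its levels were -7.30 and -5.27 on the ACKR4-negative arrays and -5.72 and -7.17 on the ACKR4-positive arrays. None of the 4 was well above background, and the groups overlapped. The sorts differed in sign, 1.58 in sort 1 and -1.90 in sort 2. Both genes thus had signal of different kinds: Dpp4 was measured in ACKR4-negative cells, and Fap was not well above background in either group. The Fap probe lies at chr2:62339002-62339060 (mm9, minus strand).

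Anpep, which removes neutral residues from N-termini and is also a surface marker of myeloid cells and pericytes, had levels of -4.79 and -5.18 in ACKR4-negative cells. In ACKR4-positive cells the levels were -0.97 and -0.20, well above background on all 4 arrays. Both ACKR4-positive arrays stood above both ACKR4-negative arrays, and the smaller difference, in sort 1, was 3.82 against 4.98 in sort 2. The fit gave a fold of 21.1 (adjusted p = 0.0132), the 38th highest log2 fold change of all tested genes. With normexp the log2 fold change was 2.62 (adjusted p = 0.0171). The probe lies at chr7:86966716-86966775 (mm9, minus strand).

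Enpep, aminopeptidase A, takes acidic residues off N-termini and turns angiotensin II into angiotensin III. The ACKR4-negative arrays stood at -4.38 and -2.81, and the ACKR4-positive arrays at -6.61 and -6.48, neither well above background. The groups did not overlap, but the ACKR4-negative arrays differed by more than 1 log2 unit (SD 1.11), and the gene was not called (adjusted p = 0.0728, at least 4.21-fold by measured signal). It passed with the replicate block (adjusted p = 0.00822) and without ACKR4-negative replicate 1 (-3.73, adjusted p = 0.0367). With normexp the value was -0.89 (adjusted p = 0.425). The 4 spots of this probe spread by up to 0.85 (SD) within an array, the widest of the 11 probes. It lies at chr3:128972910-128972969 (mm9, minus strand).

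Mme, neprilysin or CD10, an endopeptidase that degrades enkephalins, natriuretic peptides and kinins, was read by 2 probes 897 bases apart. The first, at chr3:63184793-63184852 (mm9), read -5.41 and -5.50 without ACKR4, and -4.05 and -5.15 with it. The other, at chr3:63185750-63185809, had -6.42 and -5.99 against -5.10 and -7.23. Each was well above background on ACKR4-positive replicate 1 only, of the 4 arrays. The first probe was higher on both ACKR4-positive arrays, the other was not, and the gene did not enter the test. Without the filter on dim probes its log2 fold change was 0.85 (adjusted p = 0.739).

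Ace, angiotensin-converting enzyme, was measured in both groups. The ACKR4-negative arrays read -1.09 and -1.86 and the ACKR4-positive arrays -2.76 and -2.78, all well above background. Both ACKR4-positive arrays lay below both ACKR4-negative arrays. Of all tested genes 44.9% had groups that did not overlap, 23.3% with the ACKR4-positive arrays higher and 21.6% with them lower, so separate groups alone set no gene apart. The log2 fold change of -1.30 ± 0.36 was not called (adjusted p = 0.169), and it passed only with the replicate block (adjusted p = 0.0349). The sorts gave -1.67 and -0.92. The probe lies at chr11:105850398-105850457 (mm9, plus strand).

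Cpe, which trims basic residues from prohormone fragments in the regulated secretory pathway, was read by 3 probes. The brightest stands for the gene, with 2.77 and 2.52 on the ACKR4-negative arrays and -1.36 and -1.07 on the ACKR4-positive ones. These arrays agreed within each group to an SD of 0.18 and 0.21, and the groups were far apart (-3.86 ± 0.29, adjusted p = 0.0103). A probe that overlaps it by 8 bases gave -3.88 ± 0.31. The probe farthest upstream lies 13940 bases away in the genome, at chr8:67085401-67085460 (mm9, minus strand), and starts at base 1143 of the transcript. It gave levels of 0.08 and -0.996 against -3.55 and -3.58, a difference of -3.11 ± 0.44 (adjusted p = 0.0316 in the fit over probes). Its sequence is shown because it is the reading of Cpe that shares no bases with the brightest probe.
Cpe upstream probe: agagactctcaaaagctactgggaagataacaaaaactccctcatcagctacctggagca

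All 3 probes of Cpe were thus well above background on all arrays, with lower levels on both ACKR4-positive arrays. The brightest one lies at chr8:67071401-67071460 (mm9, minus strand).

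Cpm, a carboxypeptidase held in the membrane by a lipid anchor, which removes C-terminal basic residues from kinins and other peptides, had levels of 0.24 and -0.81 in ACKR4-negative cells. In ACKR4-positive cells the levels were -4.97 and -4.67, still well above background. The lowest ACKR4-negative array was therefore far above the highest ACKR4-positive one. The fit gave a 23.2-fold lower signal (adjusted p = 0.0149), with -5.21 in sort 1 and -3.86 in sort 2, and normexp gave -2.93. The probe lies at chr10:117121930-117121989 (mm9, plus strand).

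**Figure D2:**
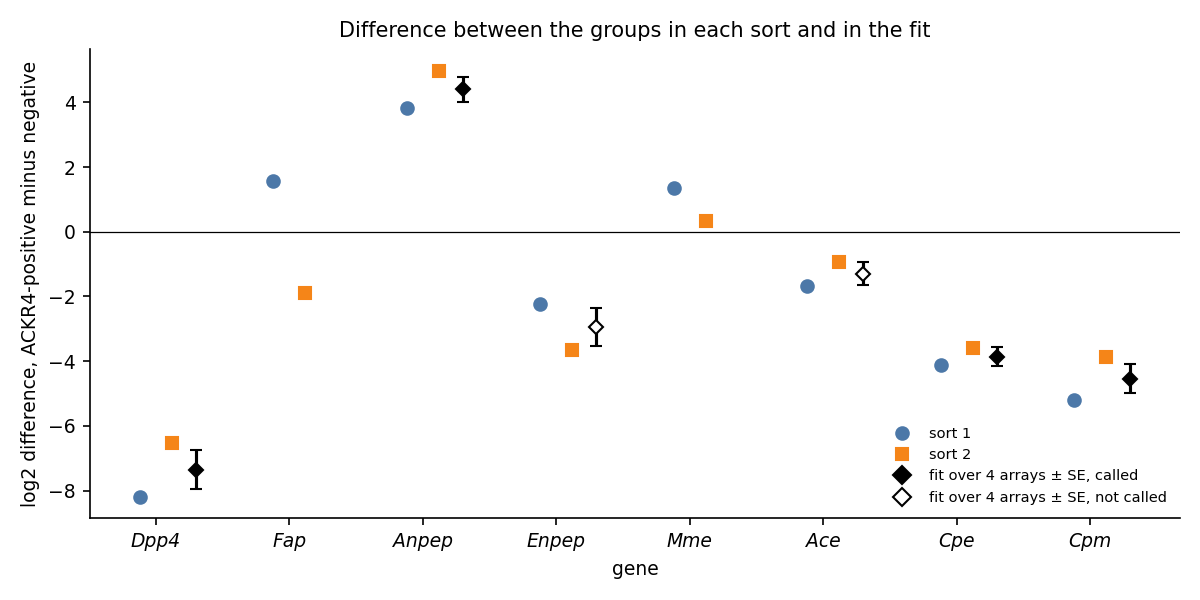
Difference between ACKR4-positive and ACKR4-negative arrays (log2) in sort 1 (circles) and sort 2 (squares), and the fit over all 4 arrays with its standard error (diamonds, filled where called, open where not), for the 8 genes. Sort numbers are read from the replicate numbers. Dpp4, Enpep, Ace, Cpe and Cpm lie below 0 and Anpep above 0 in both sorts, Fap changes sign, and Fap and Mme have no fit.

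Both arrays of a replicate carry the same mouse number in the labels, so the replicate number was taken as a pair. That it stands for the sort of origin was inferred. With the replicate number as a block, 5 genes were called lower (Dpp4, Cpe, Cpm, Enpep and Ace) and 1 higher (Anpep). Over all tested genes that fit called 8.56% lower and 6.71% higher. The signs of the 6 tested genes were the same in both sorts, but the genes were chosen on these same arrays, so this does not test agreement between sorts. Among the 6 tested genes, the difference between sorts was largest for Dpp4, whose ACKR4-positive levels were not well above background.

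Genes that moved most like each called member were named by the distance between their 4 array levels, each centred on its own mean. For Cpe these were Rasgef1a and Pcsk6, at distances of 0.058 and 0.21 log2 units over the 4 arrays. Pcsk6 encodes a proprotein convertase, and its ACKR4-positive levels were not well above background. With normexp background correction its log2 fold change was -1.04, against -3.63 for Cpe, so this closeness depends on the processing. For Dpp4 they were Spn, a sialoprotein of blood cells, and F13a1, the A chain of coagulation factor XIII (0.32 and 0.36), where the ACKR4-positive levels of Dpp4 itself were not well above background, for Cpm C1qtnf1 and Dennd3 (0.42 and 0.46), and for Anpep Atp1a4 and Prss35, a member of the trypsin-like serine protease family (0.35 and 0.53). Closeness of this kind was common: 190 genes lay within 1 log2 unit of Cpe, 61 of Cpm, 35 of Anpep and 15 of Dpp4.

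Of 26 further genes for peptidases or peptidase relatives of the cell surface and secretory route, only 9 were bright enough to be tested, of which 1 rose and 8 were not called, with a median log2 fold change of 0.06 against 0.04 for all tested genes. The gene that rose was Cpxm1, a carboxypeptidase family protein without known enzyme activity, from -3.30 and -3.11 to -0.40 and 0.09 (3.05 ± 0.31, adjusted p = 0.0162). Leaving out an ACKR4-negative array ended that call (adjusted p = 0.0718 without replicate 1 and 0.0586 without replicate 2). Ece1, endothelin-converting enzyme, had -2.22 ± 0.66 (adjusted p = 0.191), and passed with the replicate block (adjusted p = 0.00301). Erap1, an aminopeptidase that trims peptides for antigen presentation, had 0.76, and Ggt5 had 0.22. Another 17 genes of this list, Dpep1 and Ggt1 among them, did not pass the filter on dim probes.

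Among 21 tested peptidases of the cytosol, lysosome and related sites, the limma fit called 0 higher and 0 lower. At an unadjusted p under 0.05 the counts were 2 and 2, and the replicate block called 2 higher and 1 lower. Over all tested genes the block called 6.71% higher and 8.56% lower. The share of all tested genes under the unadjusted cutoff is not given, so nothing is read from such counts here or below. The median log2 fold change of the 21 genes was 0.0041. The smallest p-values were those of Nln, neurolysin, at -1.52, Tpp2 at -0.86, and the carboxypeptidase genes Scpep1 and Prcp, both at 0.99 (adjusted p = 0.170 to 0.283). Dpp8 and Dpp9, relatives of Dpp4 inside the cell, had 0.04 and -0.11 and were not called.

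Prohormone processing genes act along the secretory route, some of them in the same granules as Cpe. Of 12 tested, 2 fell, 0 rose and 10 were not called by limma (1 higher and 3 lower at an unadjusted p under 0.05, and 2 higher and 3 lower with the replicate block), and the median was 0.21. Pcsk1, the prohormone convertase that cuts precursors ahead of Cpe, fell from -0.39 and -0.19 to -7.94 and -6.69, not well above background, at least 41.8-fold lower (-7.03 ± 0.49, adjusted p = 0.00977). With normexp its log2 fold change was -3.42, a smaller fold than that bound, which holds for the signal without normexp. Pcsk6 fell from -3.29 and -3.40 to -7.14 and -6.93, not well above background (at least 5.01-fold, adjusted p = 0.0102), a call lost with normexp (-1.04, adjusted p = 0.180). Furin had -1.13 ± 0.27 (adjusted p = 0.116, and 0.0256 with the block), and Qpct had 0.85. Pam, which amidates finished peptides, had 1.14 ± 0.51 and was not called (adjusted p = 0.408, and 0.0303 with the block).

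Genes for peptides these enzymes cut, and for peptide receptors, changed in both directions. Of 27 tested, 4 fell, 2 rose and 21 were not called, with a median of 0.24. The replicate block called 8 lower and 5 higher. The apelin receptor gene Aplnr fell from 4.32 and 4.56 to -6.93 and -5.71, not well above background (at least 1104-fold, adjusted p = 0.00641). Its log2 fold change of -10.76 ± 0.49 was -7.89 with normexp, a smaller fold than that bound. The endothelin B receptor gene Ednrb fell from 3.44 and 3.05 to -4.63 and -4.43 (-7.77 ± 0.30), and the endothelin gene Edn1 from 1.98 and 1.20 to -2.87 and -3.21 (-4.63 ± 0.38). The natriuretic peptide clearance receptor gene Npr3 fell by at least 9.72-fold (adjusted p = 0.0112, and 0.0572 with normexp). The genes that rose, named here to complete the count, were Cxcl10, a chemokine that DPP4 can clip, at 3.03 ± 0.33, and Penk, the enkephalin precursor, at 4.24 ± 0.50. Penk was not well above background in ACKR4-negative cells, and its call was lost with normexp and without ACKR4-negative replicate 1. Cxcl10 did not pass with the mean of its probes (adjusted p = 0.138), nor when an ACKR4-negative array was left out (0.0771 and 0.0602). Cxcl12, another DPP4 substrate, had -1.42 ± 0.28 and was not called (adjusted p = 0.0711, and 0.0127 with the block).

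**Figure D3:**
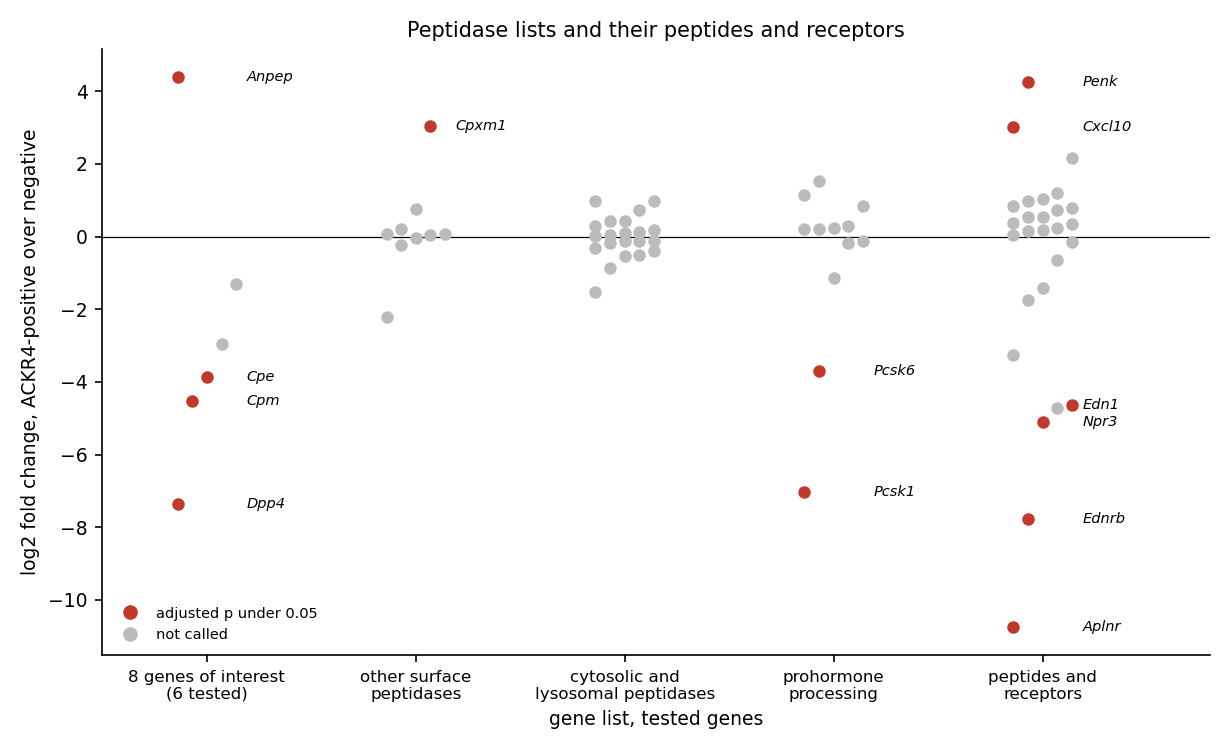
Log2 fold change (ACKR4-positive over ACKR4-negative) of each tested gene, by list, with called genes in red beside their names and the other tested genes in grey. Outside the 8 genes of interest, called genes were 1 of 9 other surface peptidases, 0 of 21 cytosolic and lysosomal peptidases, 2 of 12 prohormone processing genes and 6 of 27 peptide and receptor genes.

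Several of the peptidases are also known in cells other than endothelium, so marker genes of such cells are given beside them. Of 10 tested mural markers, 4 fell (8 with the replicate block) and 9 were lower on both ACKR4-positive arrays, as were 21.6% of all tested genes. Kcnj8 (-5.16), Abcc9 (-4.69) and Myh11 (-3.72) had the smallest p. Myh11 was well above background on 0 of the ACKR4-positive arrays, so its value includes signal not well above background. The summed level of the mural markers was 5.92 and 6.68 on the ACKR4-negative and 1.61 and 1.80 on the ACKR4-positive arrays, and Rgs5 was not tested. Without ACKR4-positive replicate 1 the number that fell was 2. Enpep, a marker of pericytes, was lower on the same arrays, and the part of mural RNA in its values was not tested. Anpep, which pericytes carry too, was higher on the arrays where these markers were lower, and the part of mural RNA in its values was not tested either.

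Fibroblastic reticular markers had 0 of 10 tested genes called by limma (1 higher and 4 lower at an unadjusted p under 0.05, 2 and 4 with the replicate block), with summed levels of 1.70 and 2.25 against 1.55 and 1.94. Cxcl13 (-3.09), Pdgfrb (-3.15) and Tcf21 (-1.74) had the smallest p, and Pdgfra, Pdpn and Dpt did not pass the filter, as Fap did not. Cxcl13 was well above background on 0 of the ACKR4-positive arrays and Pdgfrb on 1. Dcn (2.37) and Col3a1 (1.71) went the other way, higher on both ACKR4-positive arrays, and were the 2 called higher with the replicate block. Myeloid markers had 0 of 9 called by limma (0 higher and 3 lower at an unadjusted p under 0.05, 4 lower with the block). Marco (-1.43), Cd14 (-1.91) and Lyz2 (-5.44) had the smallest p. Lyz2 was well above background on only 1 of the ACKR4-positive arrays. Summed myeloid levels were 5.35 and 5.78 without ACKR4 and 4.94 and 6.49 with it, so the sums overlapped between the groups. Itgam was the brightest myeloid probe, at 4.33 and 5.29 against 4.35 and 6.36. It had the largest share of the sum on each array, so the overlap of the sums depends on this probe. Gene by gene, 3 of the 9 were lower on both ACKR4-positive arrays and 0 were higher on both. Over all tested genes these shares were 21.6% and 23.3%, so nothing is read from these counts. The part of myeloid RNA in the Anpep values was not tested.

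Of 7 tested lymphocyte markers 1 fell, Lck at -2.002 ± 0.32, and the summed levels overlapped (1.42 and 2.22 against 0.24 and 2.01). The Lck call was lost without the filter on dim probes, without either ACKR4-negative array and without ACKR4-positive replicate 1. Cd2 (-1.34) and Cd3e (0.32) followed by p and were not called. Megakaryocyte and platelet markers fell in 10 of 12 (11 with the block), with a summed level of 6.69 and 7.88 against 0.36 and 1.47. Without ACKR4-negative replicate 2 the number was 6. Itga2b (-8.18), Clec1b (-6.54) and Tubb1 (-7.26) had the smallest p. Itga2b and Tubb1 were well above background on 0 of the ACKR4-positive arrays, so their values include signal not well above background. Dpp4, Cpe and Cpm were lower on the same arrays as the platelet markers, and the part of platelet or lymphocyte RNA in the values of Dpp4, Cpe and Cpm was not tested. Of 2 tested mesothelial markers 0 were called by limma, Msln at 4.49 and Wt1 at -1.57 (1 higher and 1 lower at an unadjusted p under 0.05 and with the block). Msln was well above background on 0 of the ACKR4-negative arrays, and Wt1 on 0 of the ACKR4-positive arrays.

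Endothelial markers had signal well above background on all 4 arrays, and there was no array of other cells to compare with. Of 12 pan-endothelial genes, all tested, 1 was higher and 4 were lower at an unadjusted p under 0.05, and likewise with the replicate block. The higher one was Tek, at 1.81, not called by limma (adjusted p = 0.155). Summed levels were 9.54 and 9.64 against 9.04 and 9.42. Cldn5 was the brightest of these probes, at 8.16 and 8.53 against 8.04 and 8.73, so the sums depend on it. By limma 3 fell (Esam at -1.92, Kdr at -2.71 and Emcn at -5.24) and 9 were not called. These calls depended on single arrays, and the count was 0 to 1 when any array was left out and 1 with median centring or quantile normalization. Ackr4, whose locus drives the reporter, had levels of -7.53 and -7.50 against -0.21 and 2.55, which checks the labels. Signal was well above background for 54.9% to 58.3% of probes per array. Spike-in RNA had a median signal of 837 on the first ACKR4-negative array, where the other 3 had 2749 to 3489. Without that array Dpp4, Anpep, Cpe and Cpm kept their calls among the same tested genes, at -7.34, 4.60, -3.73 and -4.01. With the filter on dim probes applied anew to the 3 arrays left, all 4 calls were lost (limma adjusted p = 0.0566, 0.0613, 0.0671 and 0.0608).

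**Figure D4:**
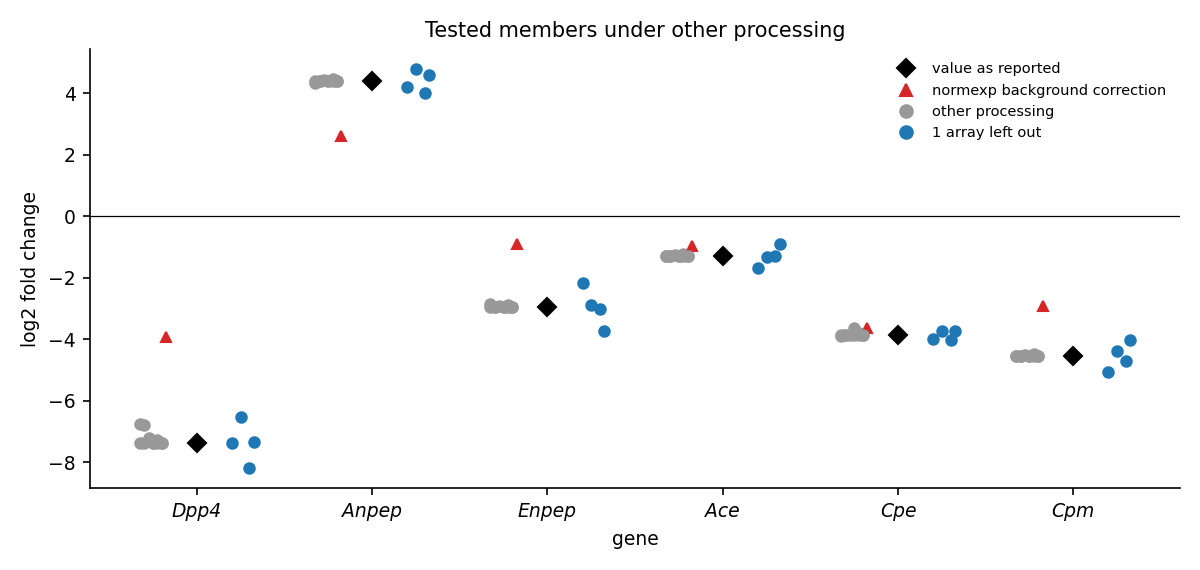
Log2 fold change of the 6 tested genes as reported (diamonds), with normexp background correction (triangles), under the other processing settings (grey circles) and with each array left out in turn (blue circles). No sign changed. Normexp brought Dpp4 to -3.91, Anpep to 2.62, Enpep to -0.89 and Cpm to -2.93, while Cpe stayed at -3.63.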

How the data were processed

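Per the labels' protocols, 6 to 20 ng of RNA from sorted spleen cells was amplified and labelled on 1 dye. Per the file headers, the authors' deposited spot intensities came from Agilent Feature Extraction 10.7.3.1 with background subtracted, a spatial trend removed, surrogates in place of low values and no scaling across arrays. The authors' deposited table of processed intensities has an upper quartile near 1500 and a lowest value of 15, and it served as an alternative. All arrays shared 1 slide and 1 scan time.

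Spots marked as outliers were left out (1.91% to 1.96%), log2 signals of a probe's 4 spots were averaged, and the 75th percentile of the array was taken off. Testing required over 50% of a probe's spots well above background on both arrays of either group, and a gene's brightest tested probe stood for it. Probes were named through RefSeq accessions (27508 of 39429), by a current symbol (3544) or by the name in the file (8377). The group comparison was a 2-sided moderated test (lmFit, eBayes) from limma 3.58.1 under R 4.3.3, adjusted by Benjamini-Hochberg, and checked on simulated data. Figures used Python 3.11.15 and matplotlib 3.10.9. An "at least" fold raises the dim arrays to the lowest level well above background. It holds for the signal without normexp, and normexp gave smaller folds than this bound for Dpp4, Enpep, Pcsk1, Pcsk6, Aplnr and Npr3.

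The replicate number pairs the arrays, since 1 mouse number is shared by the titles of each pair. That replicates 1 and 2 are the separate sorts was inferred from this, as no label names the sort of an array. Deviations of same-numbered arrays from their group means correlated at r = 0.604 across genes. The 8 genes and all lists (other surface peptidases, cytosolic and lysosomal peptidases, prohormone processing, peptides and receptors, and markers of endothelial, fibroblastic reticular, mural, platelet, lymphocyte, myeloid and mesothelial cells) were chosen with earlier results of these data known. Named genes are the 8, the 4 smallest p of each peptidase or peptide list, the called genes of a list with 5 or fewer, the 3 smallest p of each marker list, and 2 nearest genes per called member. Dpp8, Dpp9, Pam, Cxcl10, Penk, Cxcl12, Itgam, Dcn, Col3a1, Tek, Cldn5, Ackr4 and genes named as untested fall outside that rule and were chosen after their values were seen. Alternatives covered background correction, normalization, filter, floor, the deposited table, probe rule, spot flags, prior, replicate block and leaving out arrays.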

Additional observations from a re-analysis of the deposited data

How the results depend on the processing

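Over 20 alternatives, no tested member changed sign. With 1 setting changed and all arrays kept, Dpp4, Anpep, Cpe and Cpm were called in all 12 alternatives, and Enpep and Ace in 1 of 12, the replicate block. The replicate block called 5 members lower in place of 3, and 1169 genes higher and 1491 lower in place of 333 and 647. It changed the call of no other member. Leaving out each array in turn with the tested genes kept gave 78 to 293 genes higher and 315 to 596 lower, 1 member higher and 3 to 4 lower. When the filter on dim probes was applied anew to the arrays left, an alternative chosen after seeing the data, single arrays let more dim probes in and the ranges were 8 to 275 genes higher, 100 to 546 lower, 0 to 1 members higher and 0 to 3 lower. Without ACKR4-negative replicate 2 it gave 123 higher and 310 lower genes, and without ACKR4-positive replicate 1 it gave 42 and 206. The fit without ACKR4-negative replicate 1 called 0 members (adjusted p = 0.0566 for Dpp4, 0.0613 for Anpep, 0.0671 for Cpe and 0.0608 for Cpm). Without ACKR4-positive replicate 1 it called 1 lower, with Cpe at 0.0512 and Cpm at 0.0685. The log2 fold changes in these fits were the same as with the tested genes kept, at -8.18 to -6.53 for Dpp4, 4.01 to 4.79 for Anpep, -4.01 to -3.71 for Cpe and -5.06 to -4.01 for Cpm. Signal near background limits Dpp4 and Enpep in ACKR4-positive cells and Fap and Mme in both groups. Anpep in ACKR4-negative cells (-4.79 and -5.18) was not far above the lowest levels well above background on those arrays (-5.58 and -5.56). The same held for Cpm in ACKR4-positive cells (-4.97 and -4.67, against -6.03 and -5.31). Their folds were smaller with normexp, at log2 fold changes of 2.62 and -2.93. With 2 arrays per group, fits without 1 array rest on few degrees of freedom.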
